A study of Mus musculus with 32 samples.

Results

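Vascular endothelial growth factor (VEGF) ligands and receptors form a small gene family, and 10 of its genes were followed here among the 54446 genes of the count tables. They were chosen by name, with gene identifiers matched to symbols, and comprise the ligands Vegfa, Vegfb, Vegfc, Vegfd and Pgf, the receptors Flt1, Kdr and Flt4, and the coreceptors Nrp1 and Nrp2. All 10 had reads in all 32 libraries, from a lowest count of 12 for Flt4 to a highest of 12632 for Vegfa, and all 10 passed the filter on low counts in every fit. RNA was sequenced from bulk liver tumours of BALB/c mice that all carried BNL-MEA, a mouse hepatocellular carcinoma line implanted in the liver. Regorafenib, a drug taken by mouth, inhibits the kinases of the VEGF receptors and others. The dose experiment gave it to tumour-bearing mice at a low dose of 5 mg/kg/day (n = 3) or a high dose of 20 mg/kg/day (n = 3), beside mice given vehicle (n = 4). Mice of the DC-101 experiment received vehicle (n = 4), the low dose (n = 3) or DC-101, an antibody against the mouse Kdr protein, injected at 800 μg on days 1, 3 and 5 (n = 3). In the anti-PD1 experiment they received vehicle, the low dose, anti-PD1, an antibody to an inhibitory receptor of T cells, or the low dose and that antibody together (combination, n = 3 in each group). The labels call each experiment a batch, give no age or sex of the mice, and do not say whether replicates came from separate animals, so p-values measure only the spread between these samples. The tumours descend from 1 cell line, so every group shares its genotype.

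VEGF-A binds Flt1 and Kdr on endothelial cells, and Kdr passes on most of the signal for endothelial growth and permeability. Flt1 binds its ligands tightly with weak kinase activity, is also made as a soluble form that captures them, and is the receptor of VEGF-B and placental growth factor (Pgf), whereas VEGF-C and VEGF-D act through Flt4 on lymphatic and sprouting endothelium. Nrp1 and Nrp2 hold VEGF and class 3 semaphorins at the cell surface, and tumour cells make Vegfa, a gene that low oxygen induces.

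On GRCm38, Flt1 (ENSMUSG00000029648.13) lies on chromosome 5 from 147561604 to 147726011 and Kdr (ENSMUSG00000062960.10) on the same chromosome from 75932827 to 75978458, both on the minus strand. Vegfa (ENSMUSG00000023951.17) lies on chromosome 17 from 46016993 to 46032369 on the minus strand. All 10 are protein-coding, and counts were summed per gene, so that soluble and membrane Flt1 or the splice forms of Vegfa could not be told apart. The promoters of these 3 genes are shown because the 2 members called by edgeR, Flt1 and Vegfa, moved in opposite directions at the high dose, while Kdr, the target of DC-101, was called in no comparison by that tool. Each sequence is the 250 bases before the start that RefSeq gives on GRCm38.p6, written in the direction of the gene, with capitals for the core of the hypoxia response element (ACGTG or GCGTG, on either strand).
Vegfa, chr17:46032378-46032627, minus strand: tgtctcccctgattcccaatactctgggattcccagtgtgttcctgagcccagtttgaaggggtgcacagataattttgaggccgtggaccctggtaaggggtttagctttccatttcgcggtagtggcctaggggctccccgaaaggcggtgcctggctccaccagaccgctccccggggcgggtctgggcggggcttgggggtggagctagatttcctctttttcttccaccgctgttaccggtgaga
Flt1, chr5:147726012-147726261, minus strand: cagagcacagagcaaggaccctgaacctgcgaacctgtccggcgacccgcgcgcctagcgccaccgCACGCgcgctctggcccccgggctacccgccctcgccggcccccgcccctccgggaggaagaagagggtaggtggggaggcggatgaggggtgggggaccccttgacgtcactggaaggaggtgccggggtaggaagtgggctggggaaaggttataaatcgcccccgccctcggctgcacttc
Kdr, chr5:75978456-75978705, minus strand: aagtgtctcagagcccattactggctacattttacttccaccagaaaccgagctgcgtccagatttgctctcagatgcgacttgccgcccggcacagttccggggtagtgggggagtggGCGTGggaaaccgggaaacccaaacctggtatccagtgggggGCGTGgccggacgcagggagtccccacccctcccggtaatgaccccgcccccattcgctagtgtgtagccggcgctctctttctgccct
The Kdr window held 2 matches, the Flt1 window 1 match and the Vegfa window 0 matches. RefSeq gives 2 windows for Vegfa, and only the one nearest the annotated start was read. Bases farther upstream were not searched, so 0 matches do not show that a gene lacks the element. Of all 32851 promoter windows of this length, 38.6% held at least 1 match, and 6 of the 10 members did. The letters ACGTG also lie inside CACGTG, the E-box, which was in none of the windows of the 10 members and in 6.02% of all windows. A match is a description of the letters and not a binding site.

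Total counts were 16.8 to 27.7 M per library. Values below are log2 CPM, that is log2 of counts brought to the same library total, scaled within each experiment by the trimmed mean of M values (TMM). All 20 endothelial marker genes were detected in every library, and their mean log2 CPM, the endothelial score, ran from 2.98 to 5.39. The hepatocyte score (30 genes) ran from 0.15 to 11.91, so libraries differed widely in liver RNA. High dose replicate 1 stood apart, with a hepatocyte score of 11.91, a TMM factor of 0.68 and 5.37% of counts from mitochondrial genes, against at most 2.86% in any other library. In bulk samples, fewer cells of a type and less RNA per cell cannot be told apart.

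Per kilobase of exon, Vegfa had the highest mean of the members with vehicle and the 3 receptors had the lowest. On this log2 scale (CPM per kilobase of merged exons, mean over the vehicle libraries of the 3 experiments), the order was Vegfa 5.02, Vegfb 4.34, Nrp2 3.97, Vegfc 3.09, Vegfd 2.98, Nrp1 2.87, Pgf 2.5, Kdr 1.84, Flt1 1.3 and Flt4 0.98. In the 4 vehicle libraries of the dose experiment, Vegfa (4.86 to 5.28) did not overlap Vegfb (3.91 to 4.52), and Nrp2 (3.93 to 4.27) did not overlap Vegfc (2.82 to 3.49). Vegfb and Nrp2 overlapped each other there, as did Vegfc with Nrp1 (2.71 to 2.94), Kdr (1.55 to 2.7) with Flt1 (0.86 to 1.91), and Flt1 with Flt4 (0.65 to 1.91). Vegfa overlapped Vegfb with vehicle in the DC-101 experiment (4.41 to 6.03 against 3.89 to 4.78) and in the anti-PD1 experiment (3.31 to 7.04 against 4.14 to 5.03), where Vegfa was above Vegfb in 1 of 3 libraries, replicate 3. With the length of the longest transcript in place of merged exons, 6 of the 10 kept their place.

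Flt1 was the member that fell with the low dose of regorafenib. In the dose experiment its log2 CPM was 4.61, 5.66, 4.95 and 5.55 in the vehicle libraries, 3.40, 3.63 and 3.68 at the low dose, and 3.43, 4.27 and 2.33 at the high dose. In the DC-101 experiment it was 5.09, 5.65, 4.83 and 5.81 with vehicle, 3.89, 3.73 and 4.15 at the low dose, and 3.46, 3.65 and 4.25 with DC-101. In the anti-PD1 experiment it was 4.61, 4.24 and 4.99 with vehicle, 3.65, 2.08 and 2.69 at the low dose, 3.26, 3.48 and 4.30 with anti-PD1, and 3.71, 3.31 and 3.64 with the combination. Every low dose, high dose, DC-101 and combination library lay under every vehicle library of its own experiment, and with anti-PD1 alone the highest library (4.30) lay just over the lowest vehicle library (4.24). Fitted over the 3 experiments with the experiment as a term, Flt1 was 3.06-fold lower at the low dose (log2 change -1.61, SE 0.19, adjusted p = 0.0002). It was the 1 member called of 10, where 1.77% of the 15562 genes tested were called, and 3 members had an unadjusted p under 0.05. DESeq2 also called Flt1 alone of the members, and 5.76% of the genes. The call held when any 1 of the 20 libraries was left out (-1.74 to -1.54) and when any whole experiment was left out.

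**Figure D1:**
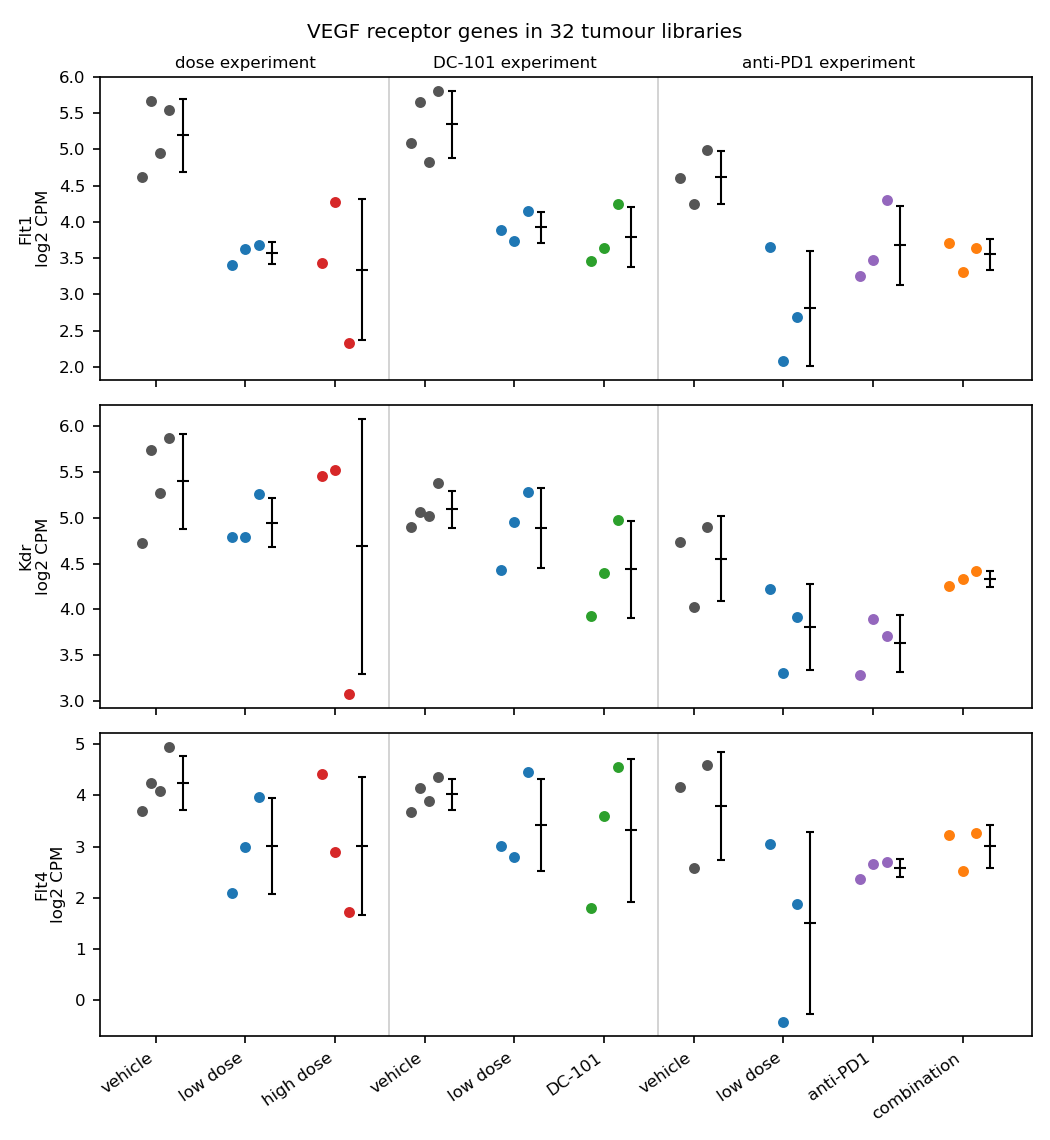
Log2 CPM of Flt1, Kdr and Flt4 (rows) in each of the 32 libraries, by experiment and treatment; points are libraries, and the bar beside them is the mean with 1 SD. For Flt1, low dose libraries sit between 2.08 and 4.15 and vehicle libraries between 4.24 and 5.81, whereas Kdr and Flt4 overlap between these groups.

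The size of the Flt1 change was close in the 3 experiments. It was -1.69 (SE 0.44, adjusted p = 0.723) in the dose experiment, -1.47 (SE 0.29, adjusted p = 0.0971) in the DC-101 experiment and -1.70 (SE 0.42, adjusted p = 0.246) in the anti-PD1 experiment. None of these passed the threshold within its own experiment by edgeR. A test of the difference between the experiments gave an unadjusted p of 0.89 for Flt1. That test called 0 of the 10 members and 0% of the 15562 genes; 3 members had an unadjusted p under 0.05, namely Vegfd (0.0114), Pgf (0.0398) and Nrp1 (0.0477).

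Kdr, the main signalling receptor, and Flt4, the receptor of VEGF-C and VEGF-D, had lower means at the low dose without passing the threshold. Over the 3 experiments the lowest, median and highest log2 CPM of Kdr were 4.03, 5.02 and 5.87 in the 11 vehicle libraries and 3.30, 4.79 and 5.28 in the 9 low dose libraries. The groups overlapped, and the fitted log2 change was -0.46 (SE 0.17, adjusted p = 0.172). For Flt4 the same 3 values were 2.59, 4.15 and 4.95 with vehicle and -0.43, 2.99 and 4.46 at the low dose, with a log2 change of -1.11 (SE 0.39, adjusted p = 0.16). The lowest Flt4 value belonged to replicate 2 of the low dose in the anti-PD1 experiment, a library with 12 Flt4 reads that was also lowest in Flt1 and Kdr within its group. Among the 10 members, 7 had lower and 3 higher fitted means at the low dose, with a median log2 change of -0.27 beside 0.03 over all genes tested.

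Endothelial genes were lower together with Flt1. Of the 20 endothelial markers, 13 fell and 1 rose at the low dose over the 3 experiments, with a median log2 change of -1.19, beside 1.77% of all genes called. The largest falls among them were those of Cldn5, a tight junction protein of the vessel wall (-2.45, SE 0.28, adjusted p = 0.0001), Sox17, an arterial transcription factor (-1.74, SE 0.19), and Erg, a transcription factor of endothelial identity (-1.42, SE 0.25). Pecam1 (-1.17) and the junction cadherin Cdh5 (-1.25) fell as well, and Cd34, which blood and stromal progenitors also carry, was the 1 that rose (0.55, adjusted p = 0.0437). The endothelial score was 4.23 to 5.03 with vehicle and 3.56 to 4.05 at the low dose in the dose experiment, 4.43 to 5.39 and 3.64 to 3.96 in the DC-101 experiment, and 4.24 to 4.65 and 2.98 to 3.85 in the anti-PD1 experiment, with no overlap in any of them. With the endothelial score as a covariate, the log2 change of Flt1 was -0.76 (unadjusted p = 0.023, adjusted p = 1), no gene was called, 460 genes had an unadjusted p under 0.05, and the values of Kdr and Flt4 turned positive (0.18 and 0.22). All 30 hepatocyte genes had higher fitted values at the low dose over the 3 experiments (median log2 change 1.39), with 1 of 30 called. The hepatocyte score was 4.60 to 7.77 with vehicle and 6.03 to 9.73 at the low dose in the dose experiment, 0.15 to 6.79 and 5.87 to 9.14 in the DC-101 experiment, and 7.66 to 8.16 and 4.61 to 7.31 in the anti-PD1 experiment, where the low dose lay under vehicle. With that score as a covariate, the log2 change of Flt1 was -1.64 (adjusted p = 0.0006).

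Relative to the endothelial score, Flt1 had a lower mean at the low dose in all 3 experiments, without overlap in 2 of them. Kdr had a higher mean in all 3, and so did Vegfb, Vegfc, Vegfd, Nrp1 and Nrp2. The score subtracted was itself lower at the low dose in all 3. The difference between Flt1 log2 CPM and the score was 0.35 to 1.0 with vehicle, -0.37 to -0.16 at the low dose and -0.73 to -0.51 at the high dose in the dose experiment. Within the DC-101 experiment it was 0.38 to 1.02 with vehicle, 0.09 to 0.21 at the low dose and -0.23 to 0.02 with DC-101, and the groups did not overlap. In the anti-PD1 experiment the mean was 0.16 with vehicle and -0.62 at the low dose, and the ranges (-0.41 to 0.74 and -0.90 to -0.20) overlapped. For Kdr the same difference was 0.50 to 1.07 with vehicle and 0.98 to 1.22 at the low dose in the dose experiment, -0.01 to 0.59 and 0.74 to 1.32 in the DC-101 experiment, and -0.62 to 0.66 and 0.32 to 0.47 in the anti-PD1 experiment. Low dose Kdr thus stood above vehicle on this relative scale in the DC-101 experiment and overlapped it in the others. These differences are descriptions with no test.

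**Figure D2:**
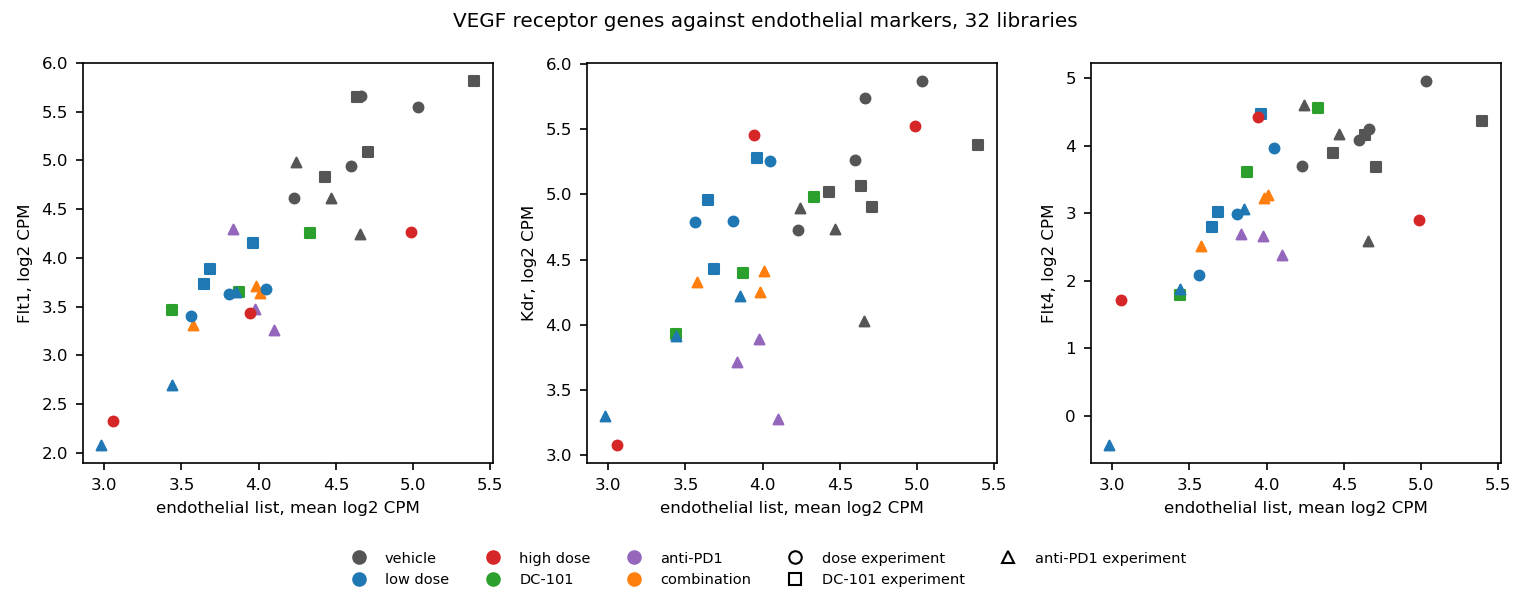
Log2 CPM of Flt1, Kdr and Flt4 (vertical axes) against the mean log2 CPM of the 20 endothelial markers (horizontal axes) in 32 libraries; colour gives the treatment and shape the experiment. Centred within experiments, Pearson's r with the score was 0.88 for Flt1, 0.70 for Kdr and 0.69 for Flt4.

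Genes known to respond to VEGF or to mark sprouting tip cells were lower as well. Of 16 such genes 7 fell and 0 rose at the low dose over the 3 experiments (median log2 change -0.74), beside 1.77% of all genes called. They included Igfbp3, which binds insulin-like growth factors (-2.36, SE 0.19, adjusted p = 2.1e-06), the potassium channel subunit Kcne3 (-1.92, SE 0.26), the basement membrane protein Nid2 (-1.69, SE 0.21), the Notch ligand Dll4 (-1.55) and the Tie2 ligand Angpt2 (-1.09). Centred within experiments, Flt1 had an r of 0.93 with the score of these genes over the 32 libraries. Of 26 signalling genes downstream of the receptors only Nos3, the endothelial nitric oxide synthase, fell (-0.997, SE 0.22, adjusted p = 0.0222), 1 gene of 26 beside that 1.77%. The median of the list was 0.03. Nos3 is also 1 of the 16 genes above, so its fall is counted in both lists. None of the 16 receptor partners and semaphorins was called, with Sema3g nearest (-0.78, SE 0.21, adjusted p = 0.0623) and then Adamts3, a protease that activates VEGF-C (-1.69, SE 0.49, adjusted p = 0.0854).

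Among the ligands, Vegfa and Pgf varied most between libraries. Vegfa, the principal ligand, was 7.10, 7.38, 6.96 and 7.05 log2 CPM with vehicle in the dose experiment, 5.92, 5.90 and 6.30 at the low dose, and 8.48, 7.98 and 8.24 at the high dose. The low dose libraries were all under the vehicle libraries and the high dose libraries all over them. In the DC-101 experiment the values were 7.66, 8.13, 7.25 and 6.51 with vehicle, 7.44, 8.29 and 7.80 at the low dose, and 6.66, 6.82 and 8.08 with DC-101, and anti-PD1 experiment values were 5.99, 5.41 and 9.14 with vehicle and 7.29, 5.49 and 6.68 at the low dose. The groups overlapped in both, and vehicle replicate 3 of the anti-PD1 experiment, with 12632 reads, held the highest Vegfa and Pgf levels of all 32 libraries. Over the 3 experiments the low dose change of Vegfa was -0.57 (SE 0.40, adjusted p = 0.52), and it was -0.0012 without that vehicle library.

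Pgf, the placental growth factor that binds Flt1, had the same layout as Vegfa at the low dose of the dose experiment. Its log2 CPM was 3.86, 4.37, 3.70 and 3.95 with vehicle, 1.72, 1.84 and 2.69 at the low dose, and 3.19, 3.12 and 4.46 at the high dose. Low dose libraries lay under both other groups, and the high dose overlapped vehicle. Within the dose experiment, the low dose change was -1.85 for Pgf (SE 0.41, adjusted p = 0.525) and -1.08 for Vegfa (SE 0.17, adjusted p = 0.268). By edgeR 0 members were called there, as were 0% of the 16525 genes, with 3 members at an unadjusted p under 0.05, whereas DESeq2 called 3 members, Vegfa, Pgf and Flt1, and 0.518% of the genes. All 15 macrophage genes had higher fitted values in this comparison (median log2 change 0.70), with a macrophage score of 7.44 to 7.54 at the low dose and 6.49 to 7.07 with vehicle. Of the 22 hypoxia response genes 20 had lower fitted values (median -0.44), with a score of 5.63 to 6.10 against 6.20 to 6.37. None of these list genes was called by edgeR (7 and 8 at an unadjusted p under 0.05), and their part in the Vegfa and Pgf values was not tested. In the DC-101 experiment, the low dose values of Pgf (4.20, 5.65 and 4.76) overlapped vehicle (3.69 to 4.97). There 20 of the 22 hypoxia response genes had higher fitted values at the low dose (median 0.33). In the anti-PD1 experiment 20 of the 22 had lower ones (median -0.70), and 0 were called in either experiment.

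The high dose separated Vegfa from Flt1. Against vehicle, Vegfa rose 2.17-fold (log2 change 1.12, SE 0.17, adjusted p = 0.0187), and Flt1 fell 3.28-fold (log2 change -1.71, SE 0.44, adjusted p = 0.0418). These were the 2 members called, where 15.6% of the 16525 genes were called. DESeq2 called 3, with Vegfb added, and 32.2% of the genes. Vegfb, a ligand of Flt1, had its 3 high dose libraries (5.67, 5.28 and 5.49) above all vehicle libraries (4.59 to 5.21), with a log2 change of 0.52 (SE 0.17, adjusted p = 0.058). Kdr was 5.46, 5.53 and 3.08 at the high dose, against 4.73 to 5.87 with vehicle, and the change of -0.43 had an SE of 0.51. Replicate 3 gave the lowest value of the 32 libraries in Kdr and held the lowest endothelial score of the high dose group (3.06). Both calls were lost when vehicle replicate 1, 3 or 4 was left out (adjusted p from 0.063 to 0.0885), and that of Flt1 also without vehicle replicate 2 (0.0946) or high dose replicate 1 (0.083); the log2 change stayed between 1.01 and 1.25 for Vegfa and between -2.27 and -1.38 for Flt1. The Flt1 call was also lost with total count scaling (adjusted p = 0.0609) and with no filter (0.0595), which called 282 and 416 genes in place of 2582. Both calls were lost with replicate number as a block, though the numbers were not treated as pairs.

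Against the low dose, the high dose had 4.59-fold more Vegfa (log2 change 2.20, SE 0.19, adjusted p = 0.0040). It was the 1 member called of 10, where 4.22% of the genes were called, and it stayed called without any 1 of the 6 libraries. A block for replicate number ended the call, as it did those against vehicle. In the same comparison 10 of 15 macrophage markers fell (median log2 change -2.06), with a score of 5.26 to 6.36 at the high dose and 7.44 to 7.54 at the low dose, and their part in the Vegfa change was not tested. Pgf was 3.02-fold higher at the high dose (log2 change 1.60, SE 0.43, adjusted p = 0.0666), with no overlap between the groups. DESeq2 called 2 members, Vegfa and Pgf, and 18.6% of the genes. Flt1 (-0.03, SE 0.45) and Kdr (0.08, SE 0.54) had differences smaller than their SE, so the doses were not ranked on them.

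**Figure D3:**
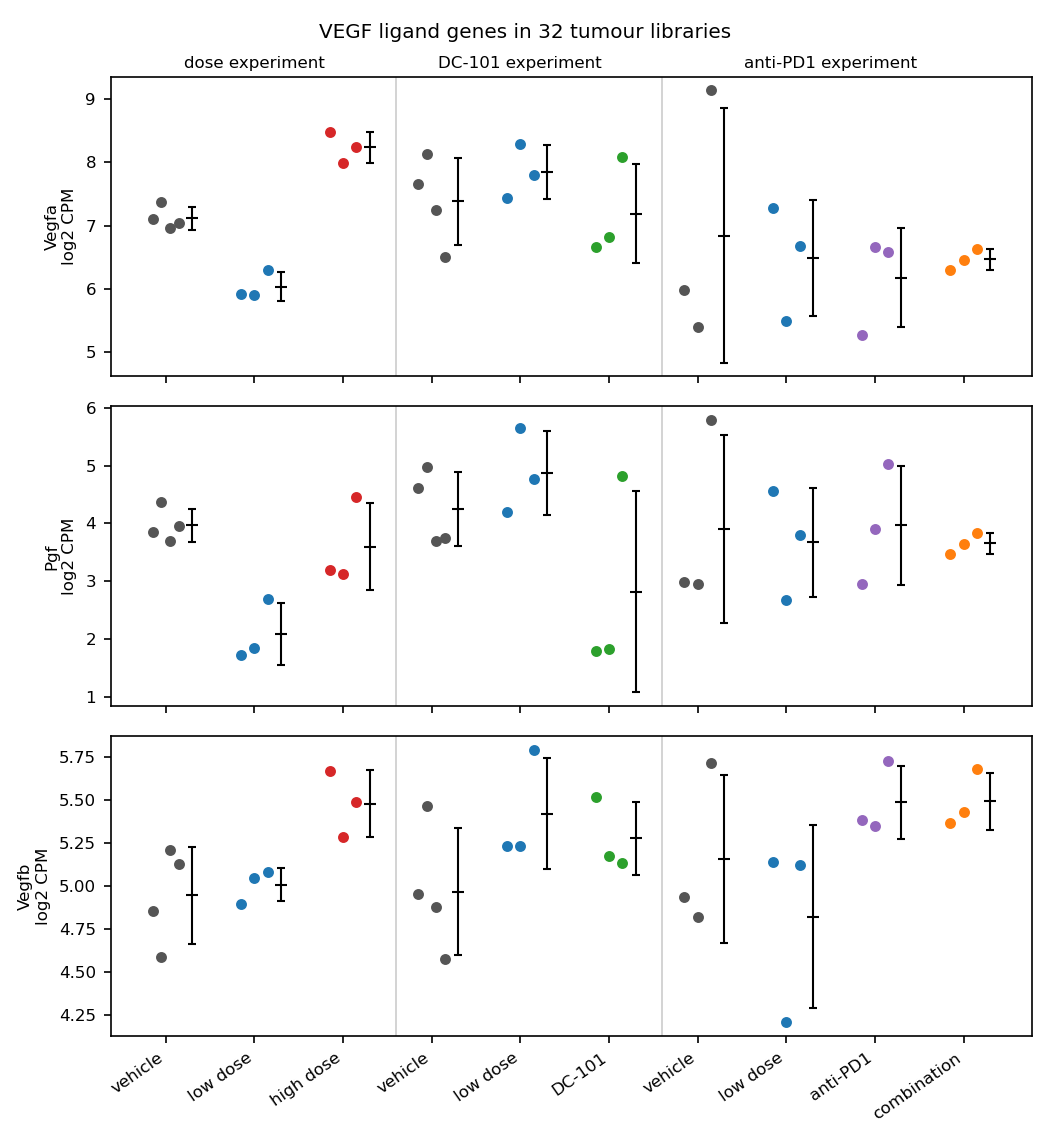
Log2 CPM of Vegfa, Pgf and Vegfb (rows) in each of the 32 libraries, by experiment and treatment; points are libraries, and the bar beside them is the mean with 1 SD. In the dose experiment Vegfa sits at 5.90 to 6.30 at the low dose, 6.96 to 7.38 with vehicle and 7.98 to 8.48 at the high dose.

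Other gene groups of the high dose are read against the 15.6% of all genes called against vehicle and 4.22% against the low dose. Of 22 hypoxia response genes 7 rose against vehicle (median log2 change 0.56) and 10 rose against the low dose (median 1.19), with 0 falls in both. Adm, a vasodilator peptide, rose by a log2 change of 2.33 (adjusted p = 0.0225) and Egln3, an oxygen-sensing prolyl hydroxylase, by 1.67 (adjusted p = 0.0182) against vehicle. Over the 3 experiments, 0 of the 22 were called at the low dose by edgeR, 3 had an unadjusted p under 0.05, and the nearest were Pfkfb4 (0.27, SE 0.11) and Mxi1 (-0.47, SE 0.19). Of the endothelial markers 3 of 20 fell at the high dose against vehicle (Cldn5, Emcn and Icam2) and 0 rose. Of the VEGF-induced and tip cell genes 4 of 16 fell (Kcne3, Esm1, Dll4 and Plaur) and 0 rose. Among all 16525 genes tested, 1127 fell and 1455 rose. Composition moved with the same comparison: the macrophage score was 5.26 to 6.36 at the high dose and 6.49 to 7.07 with vehicle, with 10 of 15 markers lower, and the hepatocyte score was 6.76 to 11.91 and 4.60 to 7.77. All 30 hepatocyte genes had higher fitted values at the high dose (median log2 change 3.97), 28 of them with an unadjusted p under 0.05 and 3 called. With the hepatocyte score as a covariate, Vegfa had a log2 change of 0.93 and Flt1 of -2.31 (adjusted p = 0.0606 for both), and Flt4 was called instead (-2.64, adjusted p = 0.0182). The part of the macrophage RNA in these changes was not tested.

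**Figure D4:**
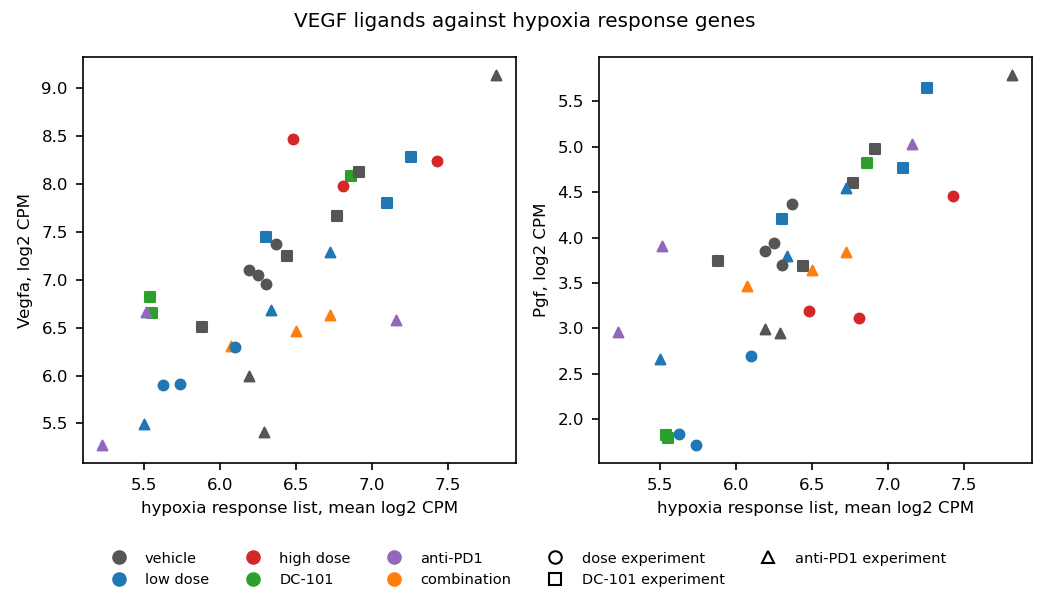
Log2 CPM of Vegfa and Pgf (vertical axes) against the mean log2 CPM of 22 hypoxia response genes (horizontal axes) in 32 libraries; colour gives the treatment and shape the experiment. Centred within experiments, Pearson's r was 0.82 for Vegfa and 0.83 for Pgf, and the 3 low dose libraries of the dose experiment lie at 5.63 to 6.10 on the horizontal axis.

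DC-101 blocks the Kdr protein, and its comparison asks whether an antibody to 1 receptor leaves the family as the kinase inhibitor does. Flt1 was 2.99-fold lower with DC-101 (log2 change -1.58, SE 0.29, adjusted p = 0.309), and 2.77-fold lower at the low dose of regorafenib. Kdr itself was 3.93, 4.40 and 4.98 with DC-101 and 4.90, 5.06, 5.02 and 5.38 with vehicle, a change of -0.61 (SE 0.27, adjusted p = 0.379) with 1 DC-101 library inside the vehicle range. By edgeR, DC-101 called 0 of 10 members and 0% of the 16138 genes, with 1 member (Flt1) at an unadjusted p under 0.05, while DESeq2 called Flt1 alone of the members (adjusted p = 0.0003) and 2.36% of the genes. The low dose in the same experiment called 0 of 10 members and 0.0248% of the genes by edgeR, with 2 members at an unadjusted p under 0.05, and DESeq2 called both of them, Flt1 and Nrp2, and 7.09% of the genes. These comparisons share their vehicle libraries.

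Compared directly, the low dose and DC-101 did not differ past the threshold in any member. Flt1 differed by 0.11 (SE 0.29, low dose minus DC-101), Kdr by 0.43 (SE 0.29) and Vegfa by 0.55 (SE 0.48). By edgeR 0 members and 0% of the 16138 genes were called, by DESeq2 0 members and 1.6% of the genes, and 1 member, Nrp2, had an unadjusted p under 0.05. Nrp2, the coreceptor of VEGF-C, was 8.09, 8.48 and 8.998 at the low dose, 8.21, 7.44 and 7.53 with DC-101 and 7.65 to 8.08 with vehicle. All low dose libraries lay above vehicle, and 1 DC-101 library lay inside the low dose range (log2 difference 0.80, SE 0.27, adjusted p = 0.483). Endothelial markers had median log2 changes of -1.14 at the low dose and -1.15 with DC-101, and no marker was called in either; the endothelial score was 3.44 to 4.33 with DC-101. All 30 hepatocyte genes had higher fitted values in both comparisons, with medians of 3.14 at the low dose and 3.49 with DC-101, and the hepatocyte score was 0.15 to 6.79 with vehicle, 5.87 to 9.14 at the low dose and 1.87 to 9.83 with DC-101. Liver sinusoidal endothelial genes had medians of 1.32 and 1.75. In fits with hepatocyte score as covariate, the log2 change of Flt1 was -1.57 at the low dose (adjusted p = 0.409) and -1.67 with DC-101 (adjusted p = 0.83), and the part of the sinusoidal genes was not tested.

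In the anti-PD1 experiment no member was called by edgeR in any of the 3 comparisons with vehicle. The low dose called 0% of the 16615 genes, with 4 members (Flt1, Flt4, Kdr and Vegfd) at an unadjusted p under 0.05 and all 10 members with lower means. Without vehicle replicate 3, the low dose values of Vegfa (0.94), Pgf (0.90), Nrp2 (0.38) and Vegfb (0.0034) were positive. In that comparison 12 of 12 liver sinusoidal endothelial genes (median log2 change -2.01), 7 of 8 lymphatic endothelial genes (-1.92) and 27 of 30 hepatocyte genes (-1.65) also had lower fitted values, with 0 called, and the part of the endothelial lists in the members' values was not tested. In fits with hepatocyte score as covariate, the low dose value of Flt1 was -1.52 (adjusted p = 0.481). Anti-PD1 called 0% of the genes, with 3 members (Kdr, Vegfd and Vegfc) at an unadjusted p under 0.05. The combination called 0%, with 1 such member, Flt1. DESeq2 called Flt1 at the low dose (adjusted p = 0.0099) and 2.57% of the genes, and none of the members with anti-PD1 (3.71% of the genes) or the combination (0.942%).

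Kdr was the receptor that separated the anti-PD1 libraries. It was 4.74, 4.03 and 4.90 with vehicle, 4.22, 3.30 and 3.91 at the low dose, 3.28, 3.89 and 3.71 with anti-PD1, and 4.25, 4.33 and 4.41 with the combination. All anti-PD1 libraries lay under vehicle (log2 change -0.96, SE 0.31, adjusted p = 0.251) and under the combination, while the combination lay inside the vehicle range (-0.27, SE 0.30). Against anti-PD1 alone, the combination had a Kdr difference of 0.69 (SE 0.31, adjusted p = 0.555) and a Flt1 difference of -0.18 (SE 0.41). In that comparison edgeR and DESeq2 called 0 members, edgeR called 0% of the 16615 genes and DESeq2 1.32%, and 1 member (Kdr) had an unadjusted p under 0.05. The hepatocyte score was 7.66 to 8.16 with vehicle, 4.58 to 6.10 with anti-PD1 and 6.49 to 9.32 with the combination, and with it as a covariate the Kdr value with anti-PD1 was -0.96 (adjusted p = 0.649). The liver sinusoidal endothelial score was 3.51 to 4.26 with vehicle, 1.60 to 2.96 with anti-PD1 and 2.71 to 3.83 with the combination. All 12 genes of that list had lower fitted values with anti-PD1 (median log2 change -1.87, 9 at an unadjusted p under 0.05), and their part in the Kdr values was not tested. Mitochondrial genes took 0.37% to 0.68% of counts with anti-PD1 and 1.36% to 2.34% with the combination, without overlap, and 0.26% to 1.90% with vehicle, where replicate 2 was the lowest. Low dose replicate 2 had 0.31%, and the part of this share in the Kdr values was not tested either.

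Vegfa and Pgf in this experiment changed sign without the vehicle library with the high Vegfa count. Vegfa had log2 changes of -1.14 at the low dose, -1.50 with anti-PD1 and -1.33 with the combination (SE 0.83 each), and 0.94, 0.58 and 0.75 without vehicle replicate 3. Pgf had -0.70, -0.36 and -0.91, and 0.90, 1.25 and 0.70 without it. The hypoxia score of that library was 7.82, the highest of the 32, against 6.19 and 6.29 in the other vehicle libraries of the experiment. Vegfc, the ligand of Flt4, was 6.27, 5.83 and 4.28 with anti-PD1 and 3.82, 4.5 and 4.82 with vehicle (log2 change 1.24, SE 0.51, adjusted p = 0.32), so 2 of 3 libraries lay above all vehicle libraries.

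**Figure D5:**
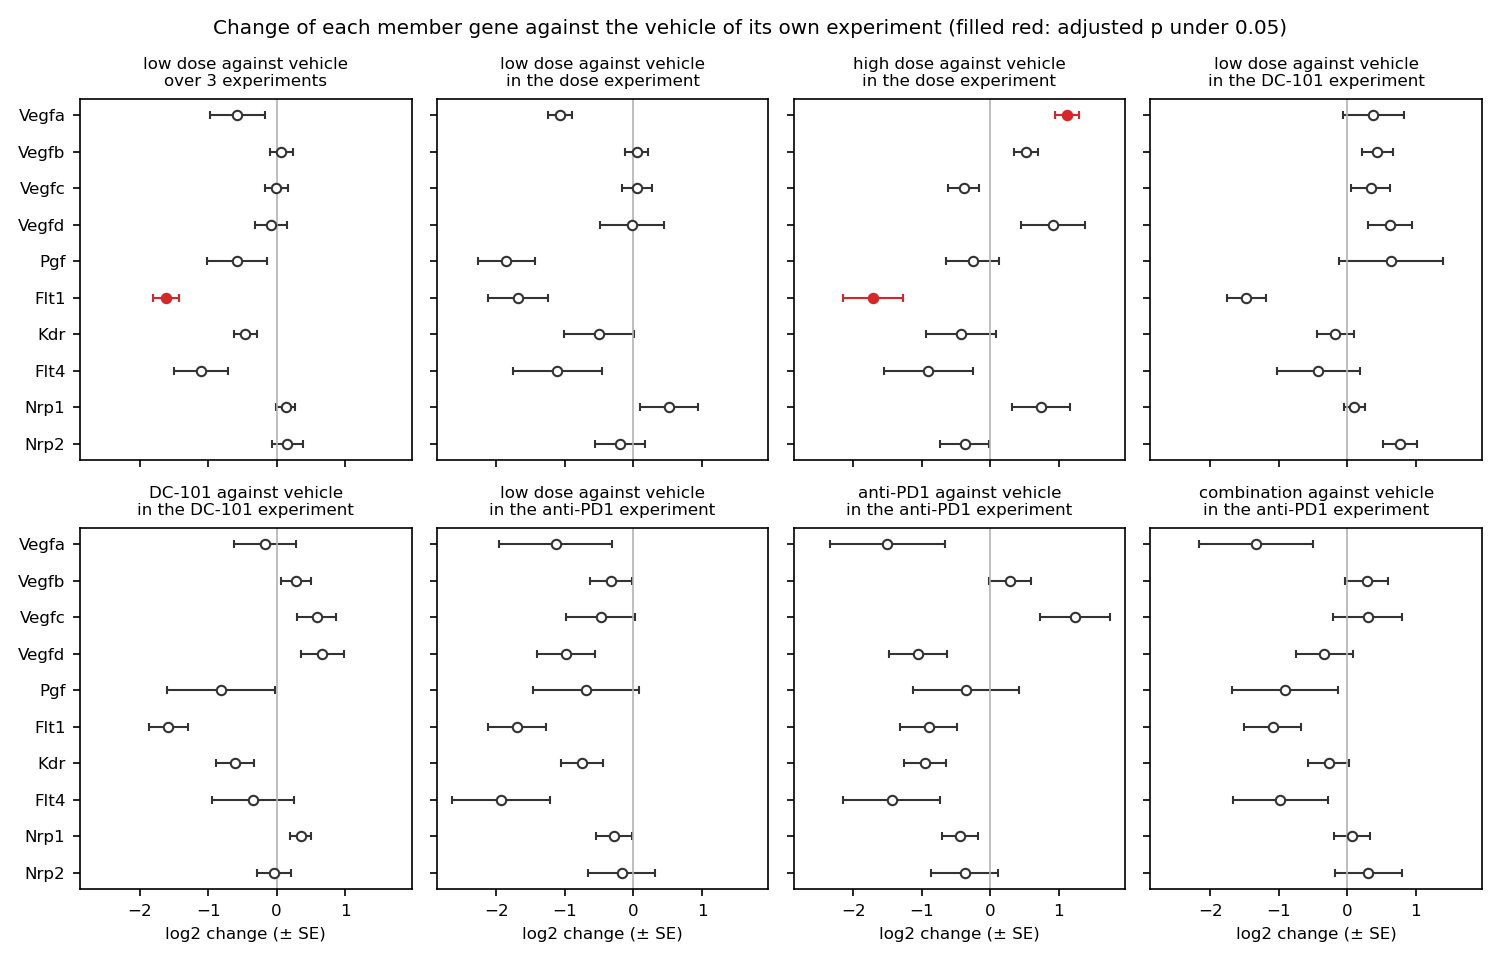
Log2 change of the 10 members (vertical axis) with its SE against the vehicle of the same experiment, 1 panel per comparison; filled red points have an adjusted p under 0.05. The red points are Flt1 over the 3 experiments (-1.61) and Vegfa (1.12) and Flt1 (-1.71) at the high dose, and Flt1 is left of 0 in all 8 panels.

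Vegfb, Vegfc, Vegfd and the coreceptors had log2 changes near 0 at the low dose over the 3 experiments. The log2 change was 0.07 for Vegfb (SE 0.17), 0.00 for Vegfc (SE 0.17), -0.08 for Vegfd (SE 0.23), 0.14 for Nrp1 (SE 0.14) and 0.15 for Nrp2 (SE 0.23), with adjusted p from 0.688 to 0.996. The Vegfd value covers changes of opposite sign, which were -0.02 (SE 0.47) in the dose experiment, 0.63 (SE 0.32) in the DC-101 experiment and -0.98 (SE 0.42) in the anti-PD1 experiment (test between experiments, unadjusted p = 0.0114, adjusted p = 0.428). Vegfd, a ligand of Flt4, had values below vehicle in all 3 low dose libraries of the anti-PD1 experiment (4.37, 4.11 and 4.01 against 4.42, 5.68 and 5.08), and all 3 DC-101 libraries (5.19, 4.49 and 4.32) lay above vehicle (3.91 to 4.18) in the DC-101 experiment. Neither passed the threshold (adjusted p = 0.391 and 0.394). Nrp1, the coreceptor of VEGF-A, was 6.60, 6.41 and 6.88 at the low dose of the dose experiment, above all its vehicle libraries (6.0 to 6.23), with a log2 change of 0.52 (SE 0.42). The high dose spread Nrp1 over 7.72, 6.61 and 5.39 and Nrp2 over 6.12, 7.22 and 8.07, on both sides of vehicle. Without high dose replicate 3, Nrp1 (1.08, adjusted p = 0.0136) and Nrp2 (-0.98, adjusted p = 0.0301) were called as well, in a fit that called 41.1% of the 17092 genes.

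The genes most like each member over the 32 libraries were found by Pearson's r of log2 CPM centred within experiments, among 15428 genes. For Flt1 they were Dll4 (r = 0.93), Cdh5 (0.93) and Trp53i11 (0.93), for Kdr they were Kit (0.85), Plekhg1 (0.83) and Sema6d (0.83), and for Flt4 they were Sema6d (0.92), Robo1 (0.92) and Adgrg3 (0.91). Flt1 thus ran with genes of the pan-endothelial and sprouting lists, and Kdr and Flt4 shared Sema6d. For Vegfa they were Gipr (0.90), P4ha2 (0.87) and C030037D09Rik (0.86), and for Pgf they were Rhov (0.90), the glucose transporter Slc2a1 (0.87) and the oxidoreductase Ero1l (0.84). P4ha2, Slc2a1 and Ero1l are on the hypoxia list. Vegfa and Pgf had an r of 0.77 with each other, and Vegfa and Flt1 one of 0.15. Libraries of a group share their treatment, so these values describe the set and are given with no p.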

How the data were processed

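RNA of bulk tumours was sequenced in 32 libraries with a stranded mRNA kit. Per the study's methods and the submitters' processing notes, the authors trimmed reads with cutadapt 2.4, aligned them to GRCm38 with STAR 2.7.2a and let STAR count reads per Gencode gene. The deposited values are these raw counts per gene, and which strand column was taken is not given in the sources used here. Of 54446 gene identifiers, 54409 matched a symbol and coordinates of Gencode M21 on GRCm38. Groups came from the labels.

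Within each experiment all groups were fitted with edgeR 4.0.16 in R 4.3.3, with filterByExpr (minimum count 10, minimum total 15), TMM scaling and a 2-sided robust quasi-likelihood F-test. P-values were adjusted by Benjamini-Hochberg over all genes tested, and called means an adjusted p under 0.05. The SE is the absolute log2 change divided by the square root of the F statistic. The low dose was also fitted over the 3 experiments with experiment as a term. Log2 CPM used a prior count of 2, and a list score is the mean log2 CPM of its genes. Tested on simulated data with 200 genes changed by a log2 change of 2, the fits recovered 96% of them over the 3 experiments, 71% for the high dose, 77.5% for DC-101 and 62.5% for anti-PD1. The changed genes were drawn only from those above a set mean count. Unchanged genes had the same mean in all libraries, so differences of experiment or cell composition were not simulated. Smaller changes were not simulated either. No 2 libraries of a group were duplicates by a chi-square test of their counts. Alternatives were DESeq2 1.42.0, voom of limma 3.58.1, RLE or total count scaling, no filter, a replicate block, hepatocyte or endothelial scores as covariates, and leaving out libraries or experiments. Shares called by DESeq2 are of genes with an adjusted p. For the test between experiments, the alternatives were chosen after seeing the data.

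The members and the 10 gene lists (180 entries) were chosen with earlier results of these data known, so list counts are no independent evidence. Named are all members, from each list up to 3 called genes with the largest change over the 3 experiments (or the 2 with the smallest p), and the 3 genes most like each member. Other list genes named were picked after their values were seen.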

Additional observations from a re-analysis of the deposited data

How the results depend on the processing

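The Flt1 call at the low dose over the 3 experiments held under DESeq2, voom, RLE and total count scaling, no filter, the replicate block (log2 change -1.53, adjusted p = 0.003), the hepatocyte covariate and every library or experiment left out. It was lost with the endothelial covariate, where 0 members were called; there Vegfc (0.0782), Vegfd (0.23), Kdr (0.18) and Flt4 (0.22) turned positive. Counts of members called moved as follows. DESeq2 called 3 at the low dose (0.518% of genes) and 2 for high against low dose (18.6%) in the dose experiment, 2 at the low dose (7.09%) and 1 for DC-101 (2.36%) in the DC-101 experiment, and 1 at the low dose in the anti-PD1 experiment (2.57%). At the high dose 1 was called with total count scaling, 1 with no filter, 1 with the hepatocyte covariate and 0 with the replicate block, and leaving out a library gave 0 to 4. For high against low dose the replicate block called 0. At the high dose against vehicle the block left 1 gene called of all those tested, against 2582, and total count scaling left 282, no filter 416 and the hepatocyte covariate 147; against the low dose the block left 1, against 697, and DESeq2 called 3059. Deviations of same-numbered libraries correlated above 0.1 in 6 of 18 pairs with anti-PD1, 4 of 9 with DC-101 and 2 of 9 by dose, so numbers were not treated as pairs. The replicate block ended the Vegfa and Flt1 calls at the high dose against vehicle and the Vegfa call against the low dose (2.20, adjusted p = 0.0833). It changed no other call of a member. The test between experiments called 0 members under every alternative run. In the order of levels 6 members kept their place with the longest transcript. The cause of these moves was not tested. No called value changed sign. Signs turned in these values that were not called: over the 3 experiments, Vegfc with total count scaling (0.0024) and no filter (0.0115), Vegfb with the hepatocyte covariate (-0.0311), Pgf (0.007) and Nrp1 (-0.0835) without the dose experiment, Vegfb (-0.13) and Nrp2 (-0.19) without the DC-101 experiment, and Vegfc (0.20) and Vegfd (0.31) without the anti-PD1 experiment. At the low dose of the dose experiment they turned in Vegfd with no filter (0.0081) and in Vegfd (0.07) and Nrp2 (0.0581) with the hepatocyte covariate, and in Vegfc with the replicate block (-0.0388). At the high dose they turned in Nrp1 (-0.37) and Nrp2 (0.0831) with the hepatocyte covariate. For high against low dose, Kdr was -0.30 with voom, -0.16 with total count scaling, -0.078 with the block and -0.81 with the hepatocyte covariate. Nrp2 with DC-101 was 0.0872 with the hepatocyte covariate, and Pgf with anti-PD1 was 0.0514 with voom. Leaving out 1 library gave ranges on both sides of 0. Over the 3 experiments they were -0.0232 to 0.18 for Vegfb, -0.11 to 0.085 for Vegfc and -0.26 to 0.0576 for Vegfd. In the dose experiment they were -0.0613 to 0.14 for Vegfb, -0.14 to 0.19 for Vegfc and -0.19 to 0.21 for Vegfd at the low dose, -0.0039 to 1.08 for Nrp1 and -0.98 to 0.0181 for Nrp2 at the high dose, and -0.27 to 0.49 for Kdr and -0.61 to 0.31 for Flt1 for high against low. In the DC-101 experiment they were -0.39 to 0.0335 for Kdr and -0.0274 to 0.21 for Nrp1 at the low dose, -0.76 to 0.13 for Vegfa, -0.28 to 0.14 for Nrp2 and -1.09 to 0.15 for Flt4 with DC-101, and -0.0735 to 0.38 for Flt1 between them. In the anti-PD1 experiment they were -1.62 to 0.94 for Vegfa, -0.49 to 0.0034 for Vegfb, -1.22 to 0.90 for Pgf and -0.47 to 0.38 for Nrp2 at the low dose, -1.98 to 0.58 for Vegfa, -1.05 to 1.25 for Pgf and -0.67 to 0.18 for Nrp2 with anti-PD1, -1.81 to 0.75 for Vegfa, -0.13 to 0.57 for Vegfc, -0.81 to 0.0396 for Vegfd, -1.34 to 0.70 for Pgf and -0.07 to 0.30 for Nrp1 with the combination, and -0.15 to 0.40 for Vegfa and -0.38 to 0.20 for Flt1 between combination and anti-PD1. The lowest count of a member in a library was 12, for Flt4.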

Other observations

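Lists of other cell types were compared over the 3 experiments at the low dose beside the members, where 1.77% of all genes were called. Of the lymphatic endothelial genes 1 of 6 tested fell, Nts, which encodes neurotensin (log2 change -2.10, SE 0.51, adjusted p = 0.043), and the median of the 6 was 0.19. None of the 12 liver sinusoidal endothelial genes was called (1 at an unadjusted p under 0.05), with Lyve1, a hyaluronan receptor, nearest (-1.71, SE 0.69, adjusted p = 0.225) and Bmp2 next (-0.77, SE 0.40). None of the 15 fibroblast and mural genes was called (3 at an unadjusted p under 0.05), and their nearest were Mfap5 (-1.45, SE 0.50) and Pdgfra (-0.61, SE 0.21). The 1 hepatocyte gene of 30 that rose was the urea cycle enzyme Ass1 (0.93, SE 0.15, adjusted p = 0.0026), with higher fitted values in all 30 and a median of 1.39, and of 15 macrophage genes 1 rose, the Fc receptor Fcgr1 (0.73, SE 0.18, adjusted p = 0.0405).

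Centred within experiments, Flt4 had an r of 0.65 and Kdr of 0.59 with the liver sinusoidal endothelial score over the 32 libraries, and Flt1 had 0.25. Nrp1 had 0.58 with that score, and Nrp2 had -0.07. Vegfa had an r of -0.70 with the macrophage score. The genes most like the remaining members were Wbp2, Rras and Gaa for Vegfb (r = 0.86, 0.84 and 0.84), Reep4, Ube2m and Anapc5 for Vegfc (0.70, 0.67 and 0.67), Hoxc4, Casp4 and Map3k8 for Vegfd (0.78, 0.75 and 0.74), Epb41, Cmtm6 and Chp1 for Nrp1 (0.92, 0.91 and 0.88), and Fmn1, Prkca and Hk1 for Nrp2 (0.94, 0.94 and 0.93). These are descriptions with no test.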
